A study of Homo sapiens with 3 samples.

Results

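The genes described here are those of the potassium channel symbol family, taken as every protein-coding gene of the deposited count table whose symbol begins with KCN followed by further letters and a digit. The rule found 96 of the 58735 genes in the table, and of its 19951 protein-coding genes. It takes pore-forming and auxiliary subunits alike and used no measured value. The cells were RPE-1, an established line of human retinal pigment epithelium that telomerase keeps dividing. All libraries came from 1 derivative with Cetn2 tagged with GFP and with PLK4 under a doxycycline-inducible, rtTA-driven promoter. They were given scramble siRNA and PLK4 was not induced (siControl_no_induction). Poly(A) RNA was sequenced in 3 libraries of this 1 group, holding 49279692, 60040029 and 46625774 counts. The study concerns the RNA-binding protein Unkempt in centriole overduplication, and with 1 group the data here describe a control state with no comparison between conditions. Whether each library had its own culture is not stated, so p-values for the spread between libraries measure only these 3 samples, and that spread may be technical.

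Potassium channels let potassium leave or enter a cell along its electrochemical gradient, which sets the resting membrane potential and, with it, calcium entry, cell volume and the transport of salt and water across epithelia. Voltage-gated channels open on depolarisation, calcium- and sodium-activated channels on a rise of those ions inside the cell, inward rectifiers pass potassium inward more easily than outward, and tandem-pore channels give background leak. In the native pigment epithelium the inward rectifier KCNJ13 (Kir7.1) is the main apical potassium channel. Auxiliary subunits carry no pore of their own and change the gating or surface delivery of a pore subunit.

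Of the 96 genes, 18 (18.8%) were detected, meaning at least 1 CPM, a count scaled to the TMM-adjusted library total, in each of the 3 libraries. Among all protein-coding genes, 57.7% were detected. Other limits gave other counts, with 29 members at 10 or more counts in each library and 11 at 0.5 RPKM or more in each. A further 45 genes had some counts and missed detection, 21 of them with under 10 counts in every library, and 33 (34.4%) had 0 counts in all 3 libraries, against 22.5% of all protein-coding genes. A count of 0 allows up to 3 counts per library, or 0.0618, 0.0494 and 0.0641 CPM in libraries 1, 2 and 3, which covers counting error only. Of the 20 symbol families 15 had a detected member. Most of these had 1, and only the KCNH and KCNK families had more. Just below detection lay KCNJ8 with 1.22, 0.889 and 0.727 CPM, KCNMB4 with 0.453, 1.00 and 1.28 CPM and KCNG3 with 1.11, 0.379 and 0.641 CPM. Just inside lay KCNMB3 with 2.02, 1.10 and 1.05 CPM.

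**Figure D1:**
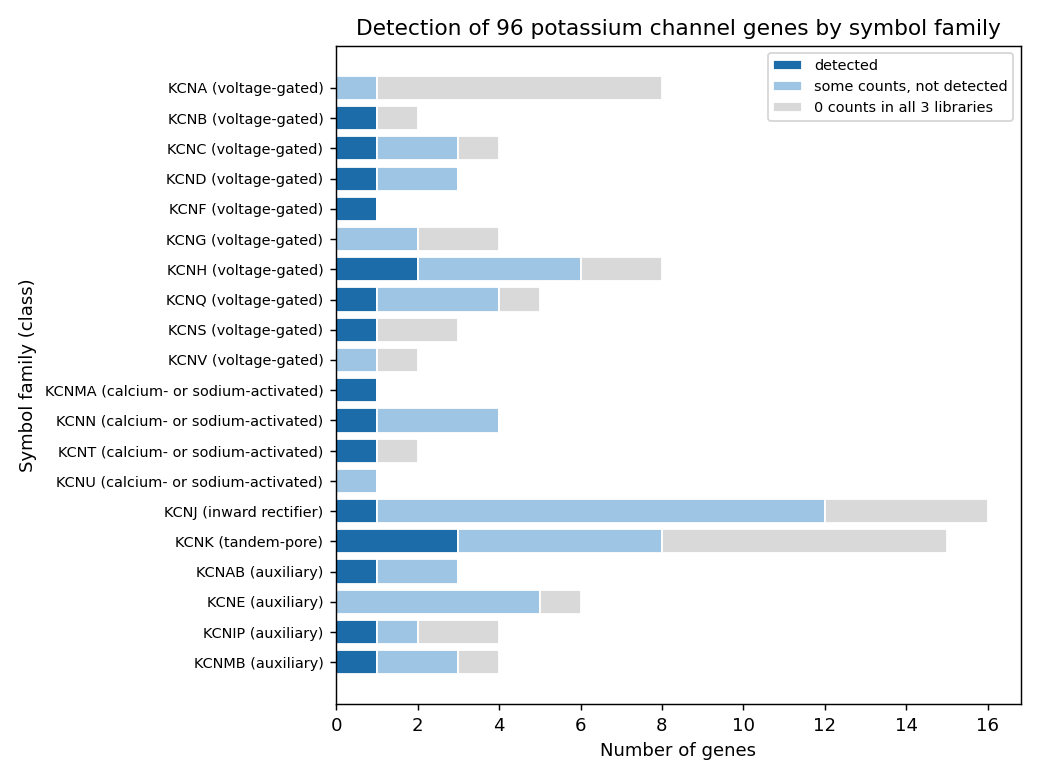
Number of potassium channel genes in each symbol family (horizontal axis), divided into genes detected at 1 CPM or more in each of 3 libraries, genes with some counts below that, and genes with 0 counts. The KCNA family has no detected member among 8 genes, and the KCNJ family has 1 among 16.

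4 genes held most of the potassium channel counts. KCNMA1, KCNN4, KCNK6 and KCNK2 together made up 86.0%, 86.7% and 86.7% of the summed CPM of all 96 genes in libraries 1, 2 and 3, and KCNMA1 alone made up 50.6%, 47.8% and 48.7%. The sum over all members was 528, 531 and 522 CPM (mean 527 ± 4.65 SD, n = 3). Calcium- or sodium-activated genes gave 355, 359 and 355 CPM and tandem-pore genes 105, 109 and 104 CPM. Voltage-gated genes, the most numerous class with 40 members, gave 42.5, 38.0 and 38.6 CPM. Auxiliary genes gave 17.4, 18.7 and 18.5 CPM and inward rectifiers 7.62, 6.34 and 5.92 CPM. The classes kept this order in each library. Sums of CPM count longer transcripts more, so the genes are compared below per kb of annotated exon (RPKM). The 18 detected genes had a median level of 0.806 RPKM, against 6.09 RPKM for the 11508 detected protein-coding genes, and 7 of the 18 reached a mean of 1 RPKM.

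**Figure D2:**
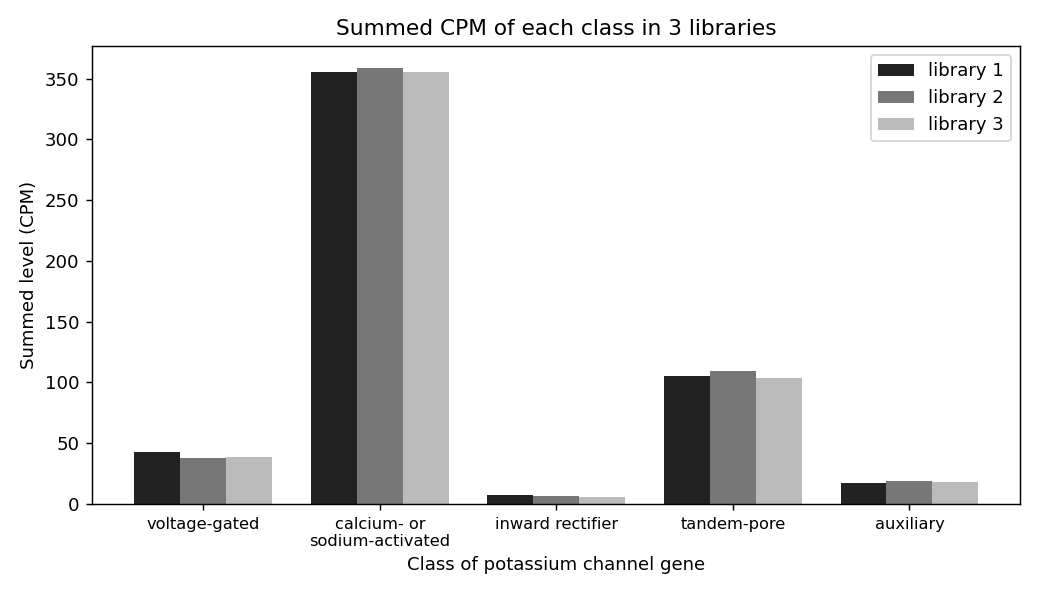
Summed CPM (vertical axis, from 0) of the members of each class in libraries 1, 2 and 3. Calcium- or sodium-activated genes stand at 355 to 359 CPM, tandem-pore genes at 104 to 109 CPM and the other classes below 43 CPM.

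KCNN4 encodes the intermediate-conductance calcium-activated channel, which opens through bound calmodulin. KCNN4 (ENSG00000104783, hg38 chromosome 19, 43766533 to 43781261) had 85.1, 102 and 96.8 CPM, or 25.0, 29.8 and 28.4 RPKM (mean 27.7 ± 2.49 SD, n = 3). It had the highest level per kb of exon of any member in each library, and 87.7% of detected protein-coding genes lay below it. KCNK6, the tandem-pore channel TWIK-2 (ENSG00000099337, chromosome 19, 38319844 to 38332076), followed with 75.2, 84.2 and 79.3 CPM, or 12.9 ± 0.734 RPKM (SD, n = 3). KCNMA1 (ENSG00000156113, chromosome 10, 76869601 to 77638369), the pore of the large-conductance channel gated by calcium and voltage, had 267, 254 and 254 CPM but 7.25 ± 0.213 RPKM (SD, n = 3), its annotated exons totalling 35644 bases. KCNK2, the mechanosensitive tandem-pore channel TREK-1 (ENSG00000082482, chromosome 1, 215005775 to 215237093), had 26.4, 20.9 and 21.7 CPM, or 5.88 ± 0.754 RPKM (SD, n = 3). Library 1 was the highest for KCNMA1 and KCNK2 and the lowest for KCNN4 and KCNK6.

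Per kb of exon KCNN4 exceeded KCNK6 by 2.15-fold (log2 ratio 1.10 ± 0.06 SD), KCNK6 exceeded KCNMA1 by 1.78-fold (0.83 ± 0.12) and KCNMA1 exceeded KCNK2 by 1.24-fold (0.31 ± 0.14), each in 3 of 3 libraries. A two-sided exact sign-flip test over 3 libraries cannot go below p = 0.25, so these orders carry no test. The same 4 genes led under each length used, but not in the same order. By CPM with no length KCNMA1 ranked 1, KCNN4 2 and KCNK6 3, and per kb of annotated coding sequence KCNK6 ranked 1, KCNN4 2 and KCNMA1 3.

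The 250 bases before the RefSeq start are shown for the 3 detected genes with the highest mean RPKM. Their CpG content differs widely. With them stand the same windows of the genes with 0 counts that had the lowest and the highest CpG ratio, KCNE2 and KCNT1. Each is written 5′ to 3′ on the gene's strand (RefSeq, GRCh38.p14), with every CG dinucleotide in capitals. The windows are chr19:43780974-43781223 on the minus strand for KCNN4, chr19:38319595-38319844 on the plus strand for KCNK6, chr10:77637809-77638058 on the minus strand for KCNMA1, chr21:34363756-34364005 on the plus strand for KCNE2 and chr9:135701935-135702184 on the plus strand for KCNT1.
KCNN4: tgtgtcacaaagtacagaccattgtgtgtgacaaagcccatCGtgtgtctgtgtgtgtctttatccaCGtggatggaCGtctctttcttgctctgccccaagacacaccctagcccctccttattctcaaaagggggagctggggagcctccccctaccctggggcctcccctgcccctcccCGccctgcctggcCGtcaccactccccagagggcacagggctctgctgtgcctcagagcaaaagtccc
KCNK6: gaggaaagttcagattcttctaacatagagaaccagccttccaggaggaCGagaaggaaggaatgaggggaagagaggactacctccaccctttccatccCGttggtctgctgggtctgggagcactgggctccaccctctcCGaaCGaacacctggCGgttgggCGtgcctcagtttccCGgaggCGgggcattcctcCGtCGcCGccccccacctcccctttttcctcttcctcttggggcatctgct
KCNMA1: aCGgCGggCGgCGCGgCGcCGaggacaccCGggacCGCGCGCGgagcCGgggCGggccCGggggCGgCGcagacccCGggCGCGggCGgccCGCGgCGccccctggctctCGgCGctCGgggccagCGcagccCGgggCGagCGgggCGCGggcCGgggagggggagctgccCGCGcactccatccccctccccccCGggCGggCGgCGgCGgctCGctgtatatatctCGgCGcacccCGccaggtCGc
KCNE2: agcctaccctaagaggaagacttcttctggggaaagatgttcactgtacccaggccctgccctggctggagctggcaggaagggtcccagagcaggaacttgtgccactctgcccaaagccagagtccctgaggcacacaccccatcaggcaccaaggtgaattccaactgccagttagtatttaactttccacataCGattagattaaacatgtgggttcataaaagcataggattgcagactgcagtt
KCNT1: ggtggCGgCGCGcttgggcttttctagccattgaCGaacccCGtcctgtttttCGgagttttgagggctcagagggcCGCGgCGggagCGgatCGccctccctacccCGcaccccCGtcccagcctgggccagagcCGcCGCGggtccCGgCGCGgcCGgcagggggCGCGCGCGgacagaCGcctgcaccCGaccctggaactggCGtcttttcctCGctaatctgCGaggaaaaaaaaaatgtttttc

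The window of KCNN4, the member with the highest level per kb of exon, held 5 CG dinucleotides and had an observed over expected CpG ratio of 0.231. That of KCNK6 held 11 (ratio 0.498) and that of KCNMA1 46 (ratio 1.01, GC content 85.6%). Among genes with 0 counts, the KCNE2 window held 1 CG dinucleotide (ratio 0.0621) and the KCNT1 window 29 (ratio 1.04). RefSeq windows were given for 71 of the 96 genes, and 66 had a start within 500 bases of a GENCODE transcript start and were kept. The median CpG ratio was 0.707 in 15 detected genes, 0.562 in 27 genes with some counts and 0.363 in 24 genes with 0 counts, and the ranges overlapped (0.0789 to 1.03 in detected genes, 0.0621 to 1.04 in genes with 0 counts). Over all 14402 protein-coding genes treated the same way, the medians were 0.833, 0.481 and 0.307 for the same states. A ratio of at least 0.6 was found in 8 of 15 detected potassium channel genes (53.3%), against 83.0% of detected protein-coding genes, and in 9 of 24 potassium channel genes with 0 counts (37.5%), against 27.6% of protein-coding genes with 0 counts.

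**Figure D3:**
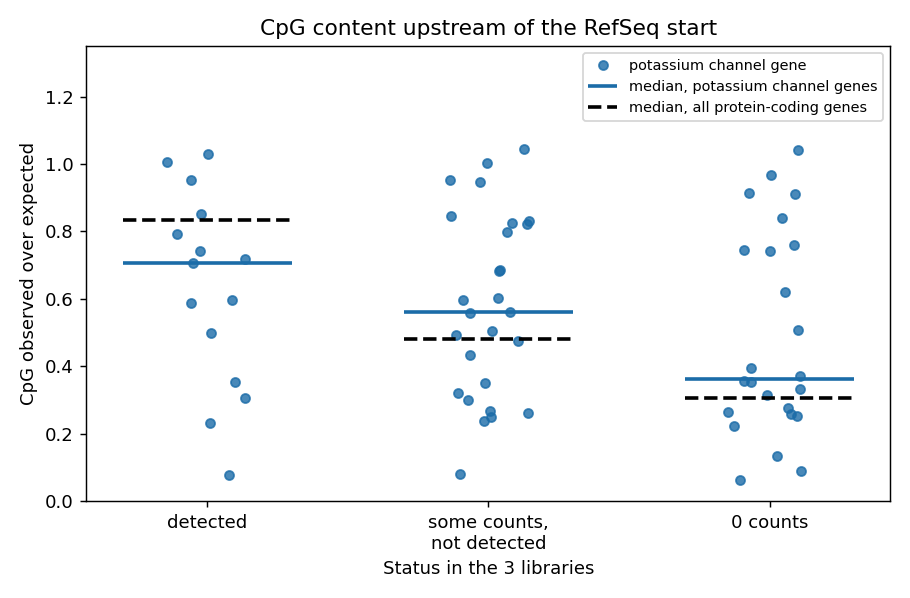
Observed over expected CpG ratio (vertical axis) in the 250 bases before the RefSeq start of 66 potassium channel genes, by status in the 3 libraries, with horizontal offsets for legibility only. Solid lines are medians of these genes (0.707, 0.562 and 0.363), and dashed lines are medians of all protein-coding genes of the same status (0.833, 0.481 and 0.307).

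The motif GGGCGG, the core of the GC box, was found on either strand in 11 of the 15 detected members, 19 of the 27 with some counts and 8 of the 24 with 0 counts. It was present in 57.5% of all 14402 windows. Among protein-coding genes detected, with some counts and with 0 counts, it was present in 68.7%, 46.0% and 31.6%. TATAAA was found in 1 of the 15, 4 of the 27 and 1 of the 24 windows, and in 8.88% of all windows. For protein-coding genes of the same states the shares were 4.85%, 12.5% and 18.6%. CCAAT was found in 6 of the 15, 10 of the 27 and 5 of the 24, and in 34.7% of all windows. The shares for protein-coding genes of the same states were 35.65%, 32.14% and 33.8%. None of these motifs contains another. A match describes letters in the window only.

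Among the other calcium-activated genes, the small-conductance channels, KCNN2 and KCNN3 stayed below 1 CPM in every library, with 0.783, 0.840 and 0.919 CPM for KCNN2 and 0.618, 0.691 and 0.940 CPM for KCNN3, and KCNN1 had 0, 3 and 3 counts. Per kb of exon KCNN4 stood 212-fold above KCNN2 and 509.8-fold above KCNN3 in 3 of 3 libraries. By CPM with no length the folds were 112 and 128, so the gap between them depends on exon length. KCNN2 had 38, 51 and 43 counts and KCNN3 30, 42 and 44. The sodium-activated channel KCNT2 was detected at 1.40, 1.81 and 1.95 CPM, and its paralogue KCNT1 had 0 counts. KCNU1, a channel known from sperm and placed in the calcium- or sodium-activated class by its symbol alone, had 7, 10 and 16 counts.

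The pore gene KCNMA1 was expressed with little mRNA of its known partners. KCNMB3, a beta subunit, had 98, 67 and 49 counts, and KCNMB4 had 22, 61 and 60. KCNMB2 had 0, 2 and 1 counts, and KCNMB1, the beta subunit of smooth muscle, had none. Per kb of exon KCNMA1 stood 49.1-fold above KCNMB3 and 42.3-fold above KCNMB4, in 3 of 3 libraries each. By CPM with no length these folds were 195 and 309. Library 1 was the highest for KCNMB3 and the lowest for KCNMB4. The exons of KCNMB3 share 37.9% of their length with PIK3CA on the opposite strand, which had 38.0, 35.6 and 39.1 CPM, and 9.62% with the pseudogene LRRFIP1P1 on the same strand. The strand setting of the counting is not given in the sources used here. Reads in the exon part that KCNMB3 and PIK3CA share are therefore of uncertain origin, and so are the counts of KCNMB3. The gamma subunits of the same channel, LRRC26, LRRC38, LRRC52 and LRRC55, had 0 counts in all libraries.

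Tandem-pore genes were detected for 3 of 15 members. Beside KCNK6 and KCNK2 this was KCNK3, the acid-sensitive channel TASK-1, with 2.90, 3.49 and 2.24 CPM, or 0.463 ± 0.100 RPKM (SD, n = 3). Library 2 was its highest and library 3 its lowest. KCNK6 stood 28.3-fold and KCNK2 12.8-fold above KCNK3 per kb of exon, in 3 of 3 libraries each. KCNK7, the highest member below detection, had 23, 7 and 3 counts. KCNK1 had 5, 1 and 0 counts, KCNK9 0, 3 and 1, KCNK12 10, 9 and 6, and KCNK13 0, 5 and 0. The acid- and alkali-sensitive genes KCNK5 and KCNK17 had 0 counts, as had KCNK4, KCNK10, KCNK15, KCNK16 and KCNK18. For KCNK4, 61.9% of the exon length is shared with the read-through gene KCNK4-TEX40 on the same strand, which also had 0 counts, so its 0 is uncertain. KCNK15 shares 21.7% of its exon length with KCNK15-AS1 and RIMS4 on the opposite strand.

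Voltage-gated genes were detected for 8 of 40 members, and KCNS3 led the class per kb of exon. It encodes a modifier subunit that forms no channel alone and combines with KCNB subunits, and it had 8.80, 7.44 and 5.98 CPM (2.37 ± 0.449 RPKM, SD, n = 3), highest in library 1. KCNF1, another modifier subunit of KCNB channels, had 1.85, 2.16 and 2.39 CPM (0.933 ± 0.118 RPKM, SD, n = 3), lowest in library 1. The lead of KCNS3 depends on the length used. By CPM with no length KCNQ5 ranked 5 and KCNS3 7 among all detected members. Per kb of annotated coding sequence KCNS3 ranked 6 and KCNQ5 7.

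KCNQ5, which carries the slowly activating M-type current, had 11.2, 12.0 and 12.3 CPM (1.56 ± 0.0749 RPKM, SD, n = 3), and its values lay close together. Its relatives were far lower, with 15, 39 and 21 counts for KCNQ3 and 0, 1 and 0 counts for KCNQ1. KCNH3 had 3.63, 4.26 and 4.70 CPM, and KCNH1, the ether-a-go-go channel known for its expression in proliferating and tumour cells, had 4.74, 2.67 and 3.18 CPM. Library 1 was the lowest for KCNH3 and the highest for KCNH1. KCNH2, the cardiac hERG channel, had 5, 10 and 9 counts. KCNH1 shares 36.9% of its exon length with AC096636.1 on the opposite strand, which had 4, 12 and 13 counts, and 16.1% with AC092017.3 and AL590132.1 on the same strand, which had none.

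KCND1, a pore of the fast-inactivating A-type current, had 4.78, 3.47 and 3.59 CPM (0.680 ± 0.124 RPKM, SD, n = 3), highest in library 1. KCND2 had 1, 0 and 3 counts and KCND3 had 0, 2 and 1. KCNC4, a high-threshold pore, had 3.61, 2.77 and 2.80 CPM, and among its relatives KCNC1 had 11, 24 and 10 counts and KCNC2 had none. KCNG3, the highest member of the class below detection, and KCNV1 are modifier subunits, and KCNV1 had 7, 5 and 18 counts. Other members below detection were KCNH5 with 26, 12 and 6 counts and KCNG1 with 6, 2 and 2. KCNH8 had 0, 2 and 2 counts and KCNH7 had 0, 0 and 1.

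Genes of the KCNA family, the Shaker-related channels, were nearly without reads. KCNA10 had 0, 0 and 3 counts, and KCNA1 to KCNA7 had 0 in every library, among them KCNA3, known from T lymphocytes and from proliferating cells. The exons of KCNA6 lie wholly within annotated exons of GALNT8 on the same strand (100%), and GALNT8 also had 0 counts, so its 0 is uncertain. The remaining voltage-gated genes with 0 counts were KCNG2, KCNG4, KCNH4, KCNH6, KCNS1, KCNS2 and KCNV2. KCNC2 also shares 35.5% of its exons with a gene on the opposite strand.

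Inward rectifiers were detected for 1 of 16 members. KCNJ2, the strong rectifier Kir2.1, had 4.22, 3.67 and 3.04 CPM (0.653 ± 0.107 RPKM, SD, n = 3), highest in library 1 and lowest in library 3. KCNJ8, a pore of the ATP-sensitive channel, had 59, 54 and 34 counts and 0.380 ± 0.100 RPKM (SD, n = 3), and KCNJ2 exceeded it 1.74-fold per kb of exon in 3 of 3 libraries. The other ATP-sensitive pore, KCNJ11, had 0, 10 and 12 counts. Of the sulfonylurea receptors that complete this channel, ABCC9 was detected with 13.9, 9.70 and 12.0 CPM, whereas ABCC8 had 0 counts.

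KCNJ13, the channel of the native pigment epithelium, had 0, 2 and 6 counts, and 24.3% of its exon length lies opposite GIGYF2. Other markers of differentiated pigment epithelium were also at or near 0: RPE65 had 8, 6 and 0 counts, RLBP1 had 1, 7 and 3, and TYR and TTR had 0. The transcription factors OTX2 (5.47 ± 0.239 RPKM) and MITF (3.05 ± 0.253 RPKM), BEST1 and PMEL were detected, so 4 of 10 listed pigment epithelium markers passed. CDH3 missed with 20, 78 and 60 counts. The remaining inward rectifiers were low: KCNJ14 had 29, 51 and 28 counts, KCNJ15 22, 20 and 27, KCNJ4 13, 7 and 15, KCNJ5 21, 7 and 1, KCNJ6 18, 5 and 3, KCNJ1 3, 1 and 3, and KCNJ3 0, 3 and 2. KCNJ14 shares 10.9% of its exon length with GRWD1 on the same strand, which had 39.1, 47.1 and 41.7 CPM. KCNJ9, KCNJ10, KCNJ16 and KCNJ18 had 0 counts. KCNJ12 (0, 2 and 4 counts) and KCNJ18 are near-identical copies, so their counts are uncertain.

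Auxiliary genes were detected for 3 of 17 members. KCNIP3, a calcium-binding protein that joins KCND channels and is also known as the transcriptional repressor DREAM, had 11.1, 11.3 and 10.8 CPM (1.41 ± 0.0328 RPKM, SD, n = 3). Its libraries differed less, in proportion, than those of any other detected member, with a ratio of highest to lowest CPM of 1.05. KCNIP3 stood 2.09-fold above its possible pore partner KCND1 per kb of exon, in 3 of 3 libraries. KCNIP2 had 24, 38 and 32 counts, and KCNIP1 and KCNIP4 had none. KCNAB2, a beta subunit of KCNA channels, had 2.16, 3.37 and 3.78 CPM, lowest in library 1, although the KCNA genes themselves had almost no counts. KCNAB3 had 34, 45 and 22 counts and KCNAB1 had 0, 1 and 0. All 6 KCNE genes, whose small products modify KCNQ1 and other pores, were below detection: KCNE5 had 12, 11 and 7 counts, KCNE4 4, 14 and 6, KCNE3 6, 3 and 2, and KCNE2 none. KCNE1 (0, 0 and 1) and KCNE1B (0, 0 and 2) are near-identical copies. KCNE5 shares 5.30% of its exon length with ACSL4 on the same strand, which had 265, 217 and 244 CPM. KCNE2 shares 34.2% of its exons with a gene on the opposite strand.

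**Figure D4:**
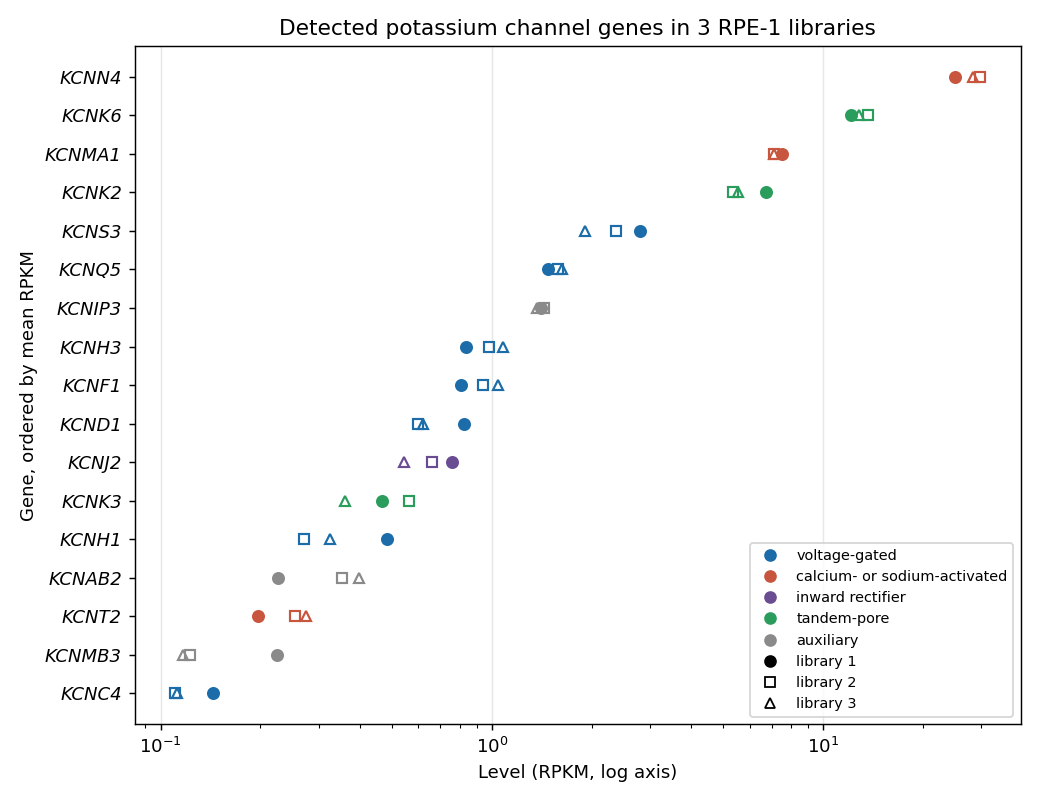
Level of the 17 detected potassium channel genes with the highest mean RPKM (log axis, RPKM) in libraries 1 (filled circles), 2 (squares) and 3 (triangles), coloured by class and ordered by mean. KCNN4 stands at 25.0 to 29.8 RPKM, and KCNC4, lowest of those shown, at 0.110 to 0.144 RPKM.

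Of the 17 pairs of neighbours in the order by mean RPKM, 12 kept their order in each library. The other 5 did not, and their members are not separated beyond the spread: KCNF1 and KCND1, KCND1 and KCNJ2, KCNK3 and KCNH1, KCNH1 and KCNAB2, and KCNT2 and KCNMB3. KCNH3 stood above KCNF1 in 3 of 3 libraries by 1.04-fold (log2 ratio 0.05 ± 0.01 SD). KCNF1 had 90, 131 and 112 counts, and this small difference was not set against counting error. Per kb of annotated coding sequence KCNF1 ranked 11 and KCNH3 15, so their order depends on the length used.

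The spread of each gene between libraries was set against counting error by a chi-square test of its 3 counts, with p-values adjusted over the 16293 genes of the table whose counts averaged 10 or more. Of these genes 68.6% had a spread beyond counting error at an adjusted p under 0.05. Of the 18 detected potassium channel genes 12 did (66.7%), against 77.5% of detected protein-coding genes, and of 17 members tested but not detected 5 did (29.4%), against 43%. Allowing every gene a further coefficient of variation of 0.05, 7 of the 18 (38.9%) were called, against 31% of detected protein-coding genes. The median ratio of highest to lowest CPM was 1.30 in the 18 genes and 1.19 in the 11508. Their median levels were 3.80 and 33.0 CPM. Counting error alone widens this ratio and weakens the test at lower counts, and genes of like counts were not compared.

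The widest ratios among called detected genes were those of KCNMB3 (1.93, adjusted p = 5.03e-05), KCNH1 (1.78, 8.79e-08), KCNAB2 (1.75, 4.03e-05), KCNK3 (1.55, 0.00179) and KCNS3 (1.47, 8.49e-06). KCNMB3 and KCNH1 were highest in library 1 and KCNAB2 was lowest there. The narrowest ratios among detected genes were those of KCNIP3 (1.05, adjusted p = 0.760), KCNMA1 (1.05, 3.31e-05), KCNQ5 (1.10, 0.315), KCNK6 (1.12, 2.49e-06) and KCNN4 (1.19, 3.61e-17). With the further coefficient of variation the adjusted p-values of KCNMA1, KCNK6 and KCNN4 were 0.797, 0.442 and 0.121. Among the 17 members tested but not detected, KCNK7 had the widest ratio with 7.39 (adjusted p = 2.31e-05), resting on 23, 7 and 3 counts.

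Library 1 was the highest for 8 of the 18 detected genes (44.4%), against 36.9% of detected protein-coding genes, and the lowest for 8 (44.4%), against 48.4%. Among the 12 called genes it was the highest for 8 (66.7%) and the lowest for 3, against 37.7% and 51.2% of the called detected protein-coding genes, and the difference was not tested. Without library 1, 4 of the 18 were called (22.2%), KCNK3, KCNK6, KCNN4 and KCNS3, against 35.4% of detected protein-coding genes. Counts in libraries 2 and 3 with 0 in library 1 were seen for 9 of the 96 members (9.38%), against 3.92% of all protein-coding genes, and 0 only in library 2 or only in library 3 for 1 and 2 members. These 9 were low genes, KCNJ11 with 10 and 12 counts being the highest. A detected gene cannot have 0 in library 1, and 57.7% of protein-coding genes were detected against 18.8% of members. The shares with 0 in library 1 therefore rest on unlike bases. Library 1 had counts in 19953 genes of the table, against 24416 in library 2 and 23050 in library 3, and the part of this difference in the pattern of the members was not tested.

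**Figure D5:**
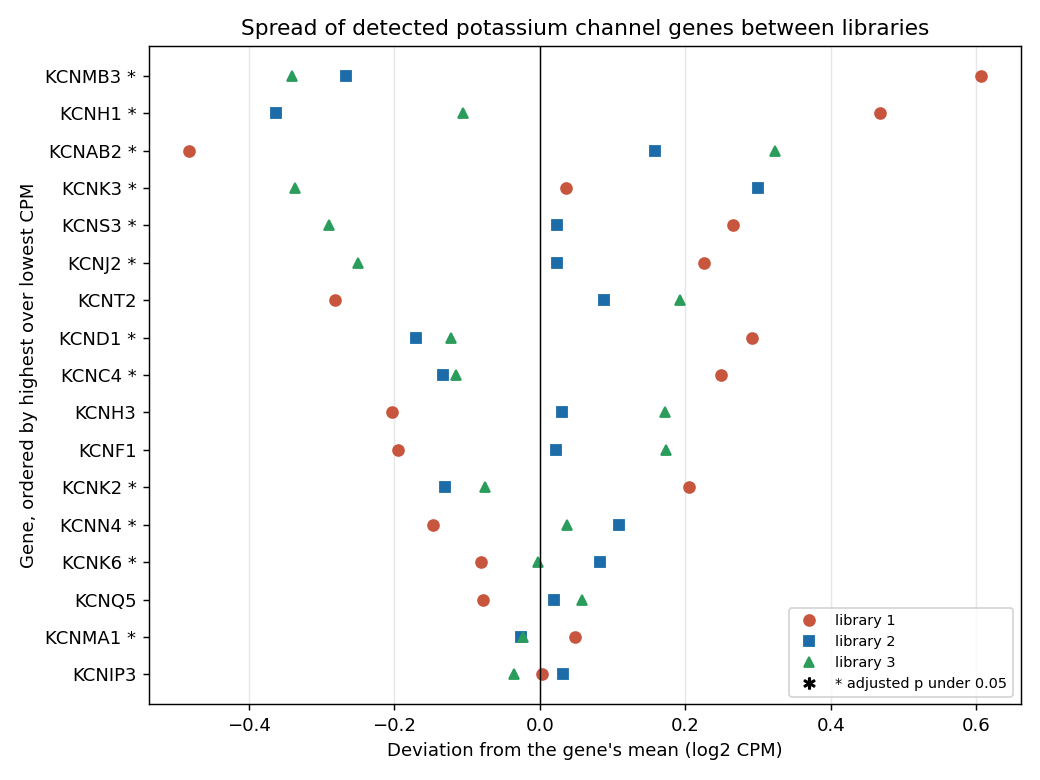
Deviation of each library from the gene's own mean (log2 CPM) for the 17 detected potassium channel genes with the highest mean RPKM, ordered from the widest to the narrowest ratio of highest to lowest CPM. Stars mark the 12 genes with an adjusted p under 0.05 in the chi-square test. Library 1 (circles) lies at 1 end for 15 of the 17 genes. Over all detected protein-coding genes it was the highest for 36.9% and the lowest for 48.4%, so this position is common there too.

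Of 70 listed genes of potassium handling and ion transport outside the symbol rule, 37 were detected by the same limit. The sodium-potassium pump, which builds the gradient that the channels use, was represented by its beta subunits ATP1B3 (46.0 ± 0.976 RPKM) and ATP1B1 (38.7 ± 2.18 RPKM, SD, n = 3 each). Of 16 pump and cotransporter genes 8 were detected, among them the potassium-chloride cotransporter SLC12A4 (12.2 ± 1.88 RPKM) and the sodium-potassium-chloride cotransporter SLC12A2 (4.25 ± 0.130 RPKM). The calmodulin genes CALM2 and CALM3, whose product is the calcium sensor of KCNN channels, stood at 75.9 and 183 RPKM. Of 14 channel partners outside the symbol rule 6 were detected, and DPP6 and DPP10, partners of KCND channels, had 0 counts.

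Of 19 voltage-gated sodium and calcium channel pore genes 6 were detected, led by SCN9A with 55.8, 42.7 and 54.4 CPM (3.71 ± 0.523 RPKM, SD, n = 3). Its level exceeded that of each detected voltage-gated potassium channel gene, of which KCNS3 was highest at 2.37 ± 0.449 RPKM. Among calcium channel pores CACNA1G alone was detected, at 0.143 ± 0.0312 RPKM. Chloride channel genes were detected for 12 of 14 members, led by LRRC8A (40.6 ± 4.50 RPKM) and the calcium-activated scramblase and channel ANO6 (29.7 ± 1.44 RPKM). TMEM175, a lysosomal potassium channel outside the symbol rule, reached 6.60 ± 1.10 RPKM. The hyperpolarisation-activated genes HCN2 (2.20 ± 0.377 RPKM) and HCN3 (1.11 ± 0.122 RPKM) were detected.

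Markers of other cells divided by list. Of 8 cardiac and skeletal muscle markers only RYR2 was detected (0.232 ± 0.0328 RPKM), and MYH6, MYH7 and TNNT2 had 0 counts. Of 8 neuron markers 5 were detected, with SYT1 highest at 13.9 ± 0.454 RPKM, while RBFOX3 and STMN2 had 0 counts. Of 6 blood markers 2 were detected, LCP1 (0.879 ± 0.106 RPKM) and PTPRC (0.225 ± 0.0841 RPKM), and CD3E and HBB had 0 counts. Of 8 smooth muscle and fibroblast markers 6 were detected, led by VIM (1518 ± 64.2 RPKM), FN1 (570.4 ± 12.9 RPKM) and ACTA2 (310.4 ± 79.0 RPKM), and MYH11 had 4, 2 and 1 counts. The summed CPM of the neuron markers was 134, 130 and 133 in libraries 1, 2 and 3, that of the smooth muscle and fibroblast markers 18831, 19045 and 18505, that of the cardiac and skeletal muscle markers 4.29, 5.33 and 5.13, and that of the blood markers 8.06, 5.83 and 5.92. All libraries came from 1 derivative of the RPE-1 line, so a detected marker does not by itself point to another cell type. The part of other cells in the channel levels was not tested.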

How the data were processed

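The deposited table holds whole-number counts of reads per gene, not normalised, with gene names and biotypes, per the file headers. The tools cutadapt 1.16, STAR 2.5.2a, featureCounts 1.6.2, and the build hg38, appear by name in the submitters' processing notes. Neither the gene models nor the handling of strand and multi-mapping reads were stated there, so reads in shared exons or near-identical copies may be lost or misplaced. A further 6 columns of per-sample counts matched no sample label given here and were not used. TMM factors came from edgeR 4.0.16 in R 4.3.3 (0.985, 1.01 and 1.00 for libraries 1, 2 and 3). All 58735 identifiers matched GENCODE 29, whose exon unions gave the length for RPKM, the positions and the exon overlaps. Promoter windows came from RefSeq and were kept where their start lay within 500 bases of a GENCODE transcript start.

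With 1 group no test between groups was possible. The chi-square test (2 degrees of freedom, Benjamini-Hochberg over all tested genes, threshold 0.05) sets the spread between libraries against counting error alone. On simulated counts with counting noise only, over 16293 genes, it called 60% of 100 genes raised 1.25-fold and 87% of 100 genes raised 2-fold in 1 library, and 0.0249% of unchanged genes. Values are given by library for detected genes, and some genes counted in the totals are not reported here by name. The plots of single genes show the 17 with the highest mean RPKM. Genes below detection are named as the highest of their class, as 0 in all libraries, or for their known roles (KCNJ13, KCNA3), and the remaining ones were named after their values were seen. The members and lists were chosen with earlier results of these data known, and the promoter windows, the CpG limit of 0.6 and the motifs after the levels were seen. Alternatives were other scalings (DESeq2 1.42.0 size factors, plain totals), detection limits, filters, lengths and leaving out each library.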

Additional observations from a re-analysis of the deposited data

How the results depend on the processing

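The number of detected potassium channel genes was 18 with TMM, with DESeq2 size factors and with plain totals, and 18 to 19 when each library was left out in turn. It was 29 with at least 10 counts in each library and 11 with at least 0.5 RPKM in each. All members with a spread beyond counting error numbered 17 of 35 tested, against 68.6% of all tested genes. They numbered 5 to 20 when each library was left out in turn, with 5 without library 1. With no filter on low counts 24 of 63 tested members were called. With a mean count of at least 50 it was 13 of 18, and with the added coefficient of variation 12 of 35. The share of all tested genes called was computed for the main setting only, so these counts describe the members alone. Shares over detected protein-coding genes exist for 2 of the settings. With the added coefficient of variation 31% of these were called, against 7 of the 18 detected members. Without library 1 it was 35.4%, against 4 of the 18. The summed CPM was 521.9 (without library 2) to 530.4 when each library was left out, against 527. The 4 leading genes stayed the same 4 under every scaling, length and left-out library tried. Of 90 mean RPKM values recomputed for single genes, the one farthest from its main value was KCNMB3 without library 1 (0.121 against 0.155 RPKM). Lengths from a protein table were not run, as none was used here, and coding length from GENCODE was added after the data were seen. No paired analysis was possible because there is only 1 group. Depth limits the genes under 10 counts, for which no order between libraries should be read.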
